A study of Mus musculus with 9 samples.

Results

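Tight junction genes were examined in mouse embryonic stem cells (ESCs) that carry mutations of *Rbbp4*. The members were the rows of the count data whose symbol was *Cldn3*, *Cldn4*, *Cldn6*, *Cldn7*, *Tjp1*, *Tjp3*, *Ocln*, *Marveld2* or *Cgn*, which made 9 of 25239 gene symbols. All 9 passed the filter on low counts, as did 14125 genes in all. RNA was sequenced from the E14 line as the control, with the genotype Rbbp4+/+, and from mutant lines with the genotypes Rbbp4Ins/Ins and Rbbp4Ins/Del, called Ins/Ins and Ins/Del here. Every line was labelled with the strain 12910la and was grown with serum and leukemia inhibitory factor. The alleles came from genome editing with CRISPR-Cas9 and are a small insertion on both copies in Ins/Ins and an insertion with a small deletion on the other copy in Ins/Del. Each mutant genotype is a single edited line, so genotype and clone cannot be told apart. There were 3 libraries per line and 9 in all. Nothing in the labels says that the 3 libraries of a line came from separate cultures, so p-values measure the spread between these libraries, which may be technical.

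Tight junctions seal the space between neighbouring epithelial cells and separate the apical from the basolateral surface. Claudins are membrane proteins that polymerise into the strands of the junction and set its permeability. Occludin (*Ocln*) and tricellulin (*Marveld2*) belong to the MARVEL-domain family, and tricellulin gathers where the corners of several cells meet. The zonula occludens proteins ZO-1 (*Tjp1*) and ZO-3 (*Tjp3*) are cytoplasmic scaffolds that bind claudin tails and link them to actin, and cingulin (*Cgn*) ties the scaffold to actomyosin. In the mouse embryo these junctions first seal the trophectoderm of the blastocyst, and ESCs grow as compact colonies that hold E-cadherin contacts.

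Library totals lay between 15838064 and 21366868 counted reads. The targeted gene, *Rbbp4*, had 9932 to 10117 normalized counts in control, 5485 to 5776 in Ins/Ins and 10129 to 10603 in Ins/Del, where a normalized count is a count scaled to the mean library size. The alleles change few bases of the gene, so the RNA level of *Rbbp4* checks the labels only in part. The summed normalized counts of 9 ESC markers, which included *Pou5f1*, *Nanog* and *Sox2*, were 98994 to 103453 in control, 123755 to 125934 in Ins/Ins and 122466 to 125819 in Ins/Del, and none of the 9 was at 0 in any line. By the test defined below, 6 of the markers rose and 2 fell in Ins/Ins, and 5 rose and 1 fell in Ins/Del. The share called was 88.9% in Ins/Ins and 66.7% in Ins/Del, beside 58.4% and 62.5% of all tested genes.

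Most of the tight junction genes had less RNA in both mutant lines, but the decrease was not shared by all of them. In Ins/Ins, 6 of the 9 genes fell, *Cldn4* and *Tjp3* rose, and *Ocln* did not pass the test. In Ins/Del the same 6 genes fell (*Cldn3*, *Cldn6*, *Cldn7*, *Tjp1*, *Marveld2* and *Cgn*), *Cldn4* rose, and *Tjp3* and *Ocln* did not pass. A gene was called when its Benjamini-Hochberg adjusted p from the edgeR quasi-likelihood test was at most 0.01. At this limit 58.4% of all tested genes were called in Ins/Ins, 29% higher and 29.4% lower, and 62.5% in Ins/Del, 30.6% higher and 31.9% lower. A call was thus common among all genes, and the sizes and directions are given beside it. Changes of over 2-fold were present in 3 members in Ins/Ins (*Cldn3*, *Cldn7* and *Marveld2*) and in 4 in Ins/Del (the same 3 and *Cldn6*), where 16% and 18.6% of all genes were called with a change over 2-fold. In all 9 members the Ins/Ins libraries lay wholly on one side of the control libraries, 2 higher and 7 lower, and in 7 members the Ins/Del libraries did, 1 higher and 6 lower. The same held for 69.1% of all tested genes in Ins/Ins (34.9% higher and 34.2% lower) and for 72.8% in Ins/Del (35.9% and 36.9%). The median log2 fold change of the members was -0.56 in Ins/Ins and -0.72 in Ins/Del, beside medians over all genes of 0.004 and -0.011. Both mutants were compared with the same 3 control libraries. In bulk RNA, fewer cells that express a gene and less RNA in each cell cannot be told apart.

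**Figure D1:**
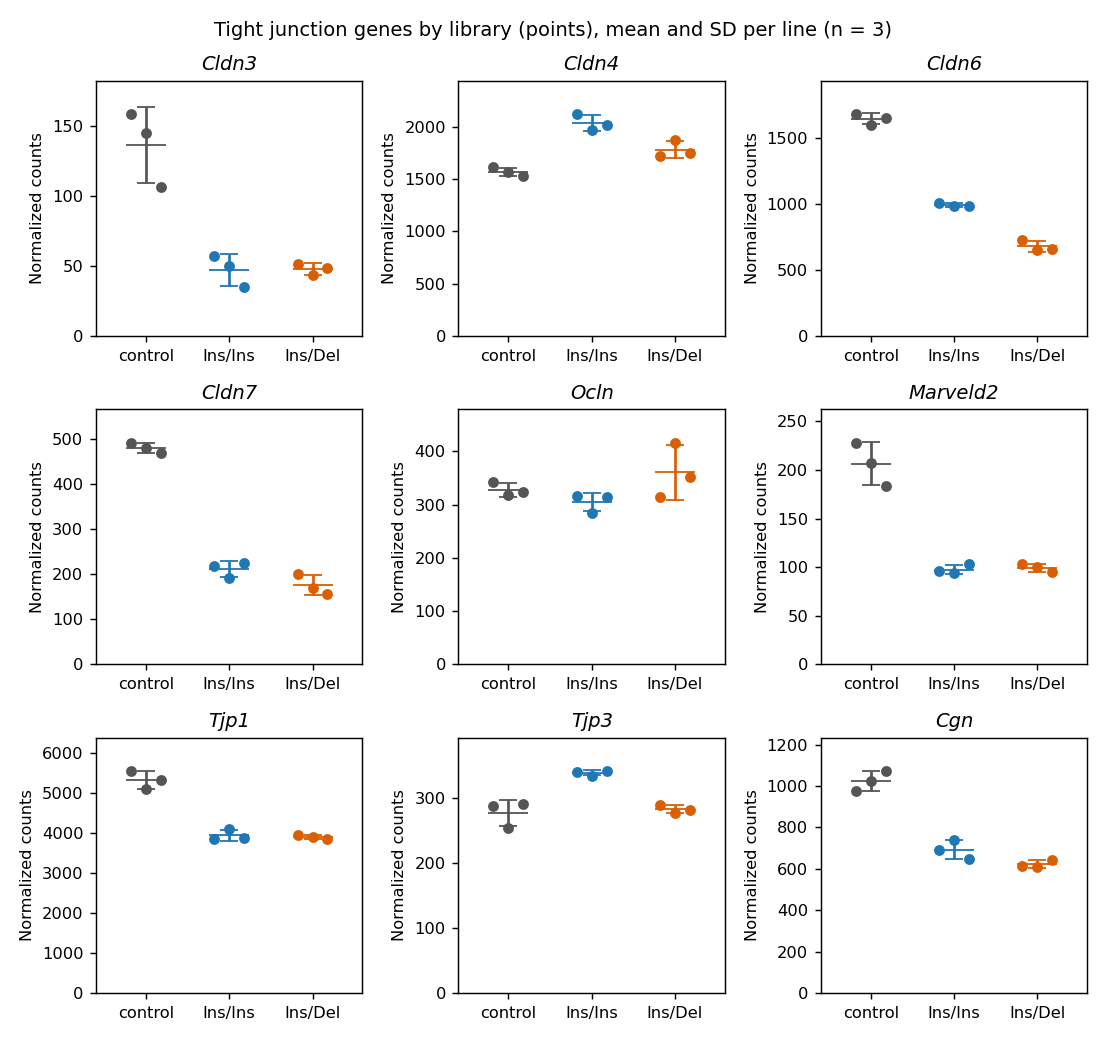
Normalized counts (linear axes from 0) of the 9 tight junction genes, 1 panel per gene, with points for the 9 libraries by line and bars for the mean and SD of each line (n = 3). The mutant points of Cldn3, Cldn6, Cldn7, Tjp1, Marveld2 and Cgn lie below every control point and those of Cldn4 lie above, while the Ins/Del points of Ocln and Tjp3 overlap control.

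The claudins were examined first. *Cldn3* and *Cldn4*, both barrier-forming claudins, are neighbours on chromosome 5. In mm10, *Cldn4* (ENSMUSG00000047501.3) lies on the minus strand from 134945119 to 134946934 and *Cldn3* (ENSMUSG00000070473.4) lies on the plus strand from 134986214 to 134987472, so their starts are 39.3 kb apart and they are transcribed away from each other. For *Cldn3*, the normalized counts were 158, 145 and 106 in control, 57.3, 49.7 and 34.9 in Ins/Ins and 51.1, 43.3 and 48.6 in Ins/Del. Every mutant library was below every control library, although control 3 was lower than the other control libraries. *Cldn3* fell 2.87-fold in Ins/Ins (log2 fold change -1.52, SE 0.17, edgeR adjusted p = 2.2e-10) and 2.89-fold in Ins/Del (-1.53, SE 0.17, adjusted p = 1.8e-10). These counts are low, from 33 to 185 reads per library, and an antisense transcript, *Wbscr25*, overlaps 40 bp or 3.18% of the *Cldn3* exons. *Cldn3* is also in a gene list that the study chose on these libraries, so its direction is not independent evidence for that list.

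*Cldn4* went the other way. Its normalized counts were 1611, 1564 and 1525 in control, 2118, 1970 and 2019 in Ins/Ins and 1722, 1871 and 1748 in Ins/Del. All mutant libraries were above all control libraries, and all Ins/Del libraries were below all Ins/Ins libraries. *Cldn4* rose 1.30-fold in Ins/Ins (log2 fold change 0.38, SE 0.04, edgeR adjusted p = 1.4e-10) and 1.14-fold in Ins/Del (0.18, SE 0.041, adjusted p = 0.00014). The ratio of *Cldn4* to *Cldn3* reads was 10.2 to 14.4 in control, 37 to 57.9 in Ins/Ins and 33.7 to 43.2 in Ins/Del. The ratios in the mutants did not overlap those in control, and the exact two-sided permutation p was 0.1 for each line, the smallest that 3 libraries against 3 allow. This outcome was fixed by the separate results. All mutant libraries were above control for *Cldn4* and below control for *Cldn3*, so the ratio adds no evidence to them.

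The 250 bases before the starts of *Cldn3*, *Cldn4* and *Tjp3* are shown because the first fell and the others rose in Ins/Ins. They come from the RefSeq promoter table on GRCm38.p6, the build named mm10, at chr5:134985964-134986213 on the plus strand, chr5:134946935-134947184 on the minus strand and chr10:81291582-81291831 on the minus strand, and are written 5′ to 3′. Capitals mark exact matches, on either strand, to CAGGTG, the E-box read by SNAIL and ZEB repressors, and to GGGCGG, the GC box.
Cldn3: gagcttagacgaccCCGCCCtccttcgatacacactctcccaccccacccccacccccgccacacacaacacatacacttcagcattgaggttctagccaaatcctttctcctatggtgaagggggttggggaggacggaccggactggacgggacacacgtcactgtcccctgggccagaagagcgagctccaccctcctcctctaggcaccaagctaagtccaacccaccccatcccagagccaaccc
Cldn4: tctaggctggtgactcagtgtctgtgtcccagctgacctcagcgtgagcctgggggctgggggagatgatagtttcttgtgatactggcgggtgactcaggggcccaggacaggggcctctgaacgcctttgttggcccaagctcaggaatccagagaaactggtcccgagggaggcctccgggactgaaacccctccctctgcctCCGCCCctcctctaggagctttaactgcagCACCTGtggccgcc
Tjp3: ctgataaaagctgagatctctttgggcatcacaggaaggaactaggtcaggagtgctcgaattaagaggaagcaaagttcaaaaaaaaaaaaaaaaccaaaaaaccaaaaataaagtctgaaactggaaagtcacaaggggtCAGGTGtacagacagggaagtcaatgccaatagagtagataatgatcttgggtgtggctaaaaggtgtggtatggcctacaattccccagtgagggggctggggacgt

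The *Cldn4* window held the E-box letters as CACCTG beginning 14 bases before the start (position -14) and a GC box at -44. *Tjp3* held an E-box at -108 and no GC box, and *Cldn3* held a GC box at -236 and no E-box. Over all 9 members, 3 windows held the E-box (*Cldn4*, *Cldn6* and *Tjp3*), beside 17.1% of 27025 promoters of the same length. The GC box was in 7 members, all except *Cldn7* and *Tjp3*, and in 33% of all promoters. G and C made 50.4 to 70.4% of the bases in these 7 windows, 51.2% in *Cldn7* and 43.2% in *Tjp3*. The median over all promoters was 52.0%, and the shares with a GC box were not adjusted for base composition. AACCGGTT, the motif of grainyhead-like factors, was in none of the 9 and in 0.126% of all promoters. Some windows are not wholly before the annotated gene. The *Cldn6* window overlaps *Cldn6* exons by 116 bases, and its E-box at -93 lies in them. The *Cgn* window overlaps *Cgn* exons by 10 bases and the *Marveld2* window overlaps *Rad17* exons by 58. The *Tjp1* window, at chr7:65371245-65371494, lies inside the *Tjp1* span given below. The letters describe the windows only, and no binding was measured here.

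*Cldn6*, a claudin of early embryonic epithelia, lies on the plus strand of chromosome 17 from 23679249 to 23682446. Its normalized counts were 1678, 1599 and 1653 in control, 1009, 984 and 986 in Ins/Ins and 727, 651 and 660 in Ins/Del. The ranges of the 3 lines did not overlap, with control highest and Ins/Del lowest. *Cldn6* fell 1.65-fold in Ins/Ins (log2 fold change -0.73, SE 0.045, edgeR adjusted p = 3.4e-17) and 2.42-fold in Ins/Del (-1.28, SE 0.048, adjusted p = 2.3e-24).

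*Cldn7*, a claudin that also sits along the lateral membrane and binds EpCAM, lies on the plus strand of chromosome 11 from 69964779 to 69967885. It had 468 to 491 normalized counts in control, 191 to 224 in Ins/Ins and 157 to 200 in Ins/Del. It fell 2.26-fold in Ins/Ins and 2.72-fold in Ins/Del, with log2 fold changes of -1.18 (SE 0.082, edgeR adjusted p = 1.2e-15) and -1.44 (SE 0.085, adjusted p = 5.7e-18). The ranges of the mutant lines overlapped each other and both lay below control.

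The unequal changes altered the make-up of the 4 claudins. Levels of different genes were compared as normalized counts per kilobase of exon. In control, *Cldn6* and *Cldn4* made 44% ± 1.08 and 39.7% ± 0.279 of the summed level of the 4 claudins (SD, n = 3), *Cldn7* made 11.3% ± 0.0922 and *Cldn3* made 4.97% ± 0.881. In Ins/Ins the *Cldn4* share was 60.8% ± 0.285 and the *Cldn6* share was 31.3% ± 0.589 (SD, n = 3). In Ins/Del the *Cldn4* share was 65.2% ± 2.4 and the *Cldn6* share was 26.3% ± 1.6 (SD, n = 3). The *Cldn4* share did not overlap between any pair of lines, with an exact two-sided permutation p of 0.1 in each comparison, the smallest possible. Against control this outcome was fixed, because *Cldn4* was higher and the other claudins of the 4 were lower in every mutant library. The summed level of the 4 claudins was 2172 ± 60.2 in control, 1844 ± 60.0 in Ins/Ins and 1503 ± 33.6 in Ins/Del (SD, n = 3), so the gain in the share of *Cldn4* went with a smaller total.

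**Figure D2:**
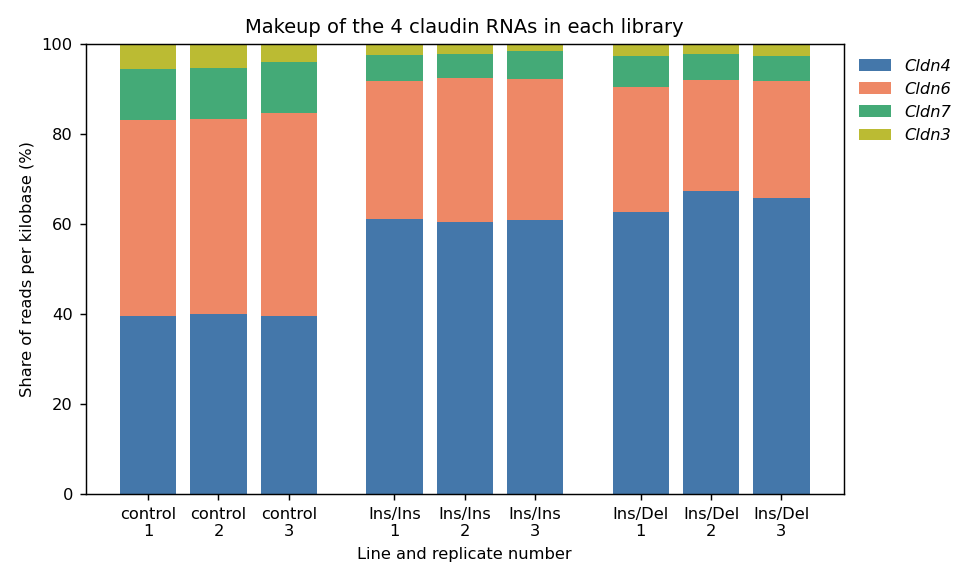
Share (percent) of each of the 4 claudins in their summed normalized counts per kilobase of exon, as 1 stacked bar per library, for the 9 libraries. The Cldn4 share is 39.5 to 40% in control, 60.5 to 61% in Ins/Ins and 62.6 to 67.4% in Ins/Del, and the Cldn6, Cldn7 and Cldn3 shares are smaller in every mutant library than in every control library.

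The MARVEL-domain genes *Marveld2* and *Ocln* are also neighbours, both on the minus strand of chromosome 13. *Ocln* spans 100496507 to 100552718 and *Marveld2* spans 100595957 to 100616971, and their starts are 64.3 kb apart. *Marveld2* had 228, 207 and 184 normalized counts in control, 95.8, 93.7 and 103 in Ins/Ins and 103, 100 and 94.9 in Ins/Del. All 6 mutant libraries were below all control libraries and the mutant lines overlapped. *Marveld2* fell 2.13-fold in Ins/Ins (log2 fold change -1.09, SE 0.11, edgeR adjusted p = 5.9e-11) and 2.08-fold in Ins/Del (-1.06, SE 0.11, adjusted p = 1.1e-10).

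*Ocln* had 343, 318 and 323 normalized counts in control, 316, 284 and 314 in Ins/Ins and 315, 416 and 351 in Ins/Del. The Ins/Ins values were just below the lowest control value and the Ins/Del values spread over both sides of control. Neither difference passed the test, with log2 fold changes of -0.11 in Ins/Ins (95% interval -0.28 to 0.07, edgeR adjusted p = 0.277) and 0.14 in Ins/Del (-0.03 to 0.31, adjusted p = 0.13). The ratio of *Ocln* to *Marveld2* reads was 1.5 to 1.75 in control, 3.04 to 3.29 in Ins/Ins and 3.05 to 4.15 in Ins/Del. The exact two-sided permutation p was 0.1 for each mutant against control, the smallest possible. This outcome followed from the lower *Marveld2* counts given above, beside *Ocln* counts that changed little. The ratio thus adds no evidence to them.

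Among the scaffold genes, *Tjp1* carried the most reads. It lies on the minus strand of chromosome 7 from 65296165 to 65527781. Its normalized counts were 5542, 5110 and 5321 in control, 3844, 4097 and 3870 in Ins/Ins and 3954, 3910 and 3853 in Ins/Del. The mutant libraries lay together and below all control libraries. *Tjp1* fell 1.35-fold in Ins/Ins and 1.36-fold in Ins/Del, with log2 fold changes of -0.44 (SE 0.033, edgeR adjusted p = 8.6e-15) and -0.45 (SE 0.033, adjusted p = 3.7e-15). *Cgn*, on the minus strand of chromosome 3 from 94760069 to 94786492, had 974 to 1071 normalized counts in control, 645 to 737 in Ins/Ins and 609 to 643 in Ins/Del. It fell 1.48-fold and 1.64-fold (log2 fold changes -0.56, SE 0.054, edgeR adjusted p = 1.1e-11, and -0.72, SE 0.055, adjusted p = 1.7e-14).

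*Tjp3*, on the minus strand of chromosome 10 from 81273207 to 81291581, did not follow *Tjp1*. Its normalized counts were 287, 253 and 290 in control, 340, 334 and 341 in Ins/Ins and 289, 277 and 281 in Ins/Del. All Ins/Ins libraries were above all control libraries, and the Ins/Del libraries lay within the control range. *Tjp3* rose 1.22-fold in Ins/Ins (log2 fold change 0.29, SE 0.078, edgeR adjusted p = 0.0014), and in Ins/Del its log2 fold change was 0.03 (95% interval -0.14 to 0.19, adjusted p = 0.785). The call in Ins/Ins was lost without control 2, the lowest control library (0.24, edgeR adjusted p = 0.0117), and narrowly with DESeq2 (0.29, adjusted p = 0.0104). *Tjp3* reads were 4.96 to 5.45% of *Tjp1* reads in control, 8.15 to 8.83% in Ins/Ins and 7.09 to 7.32% in Ins/Del. An exon of *Apba3* on the other strand overlaps 40 bp or 1.08% of the *Tjp3* exons, and the strand setting of the counting was not given in the sources used here.

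**Figure D3:**
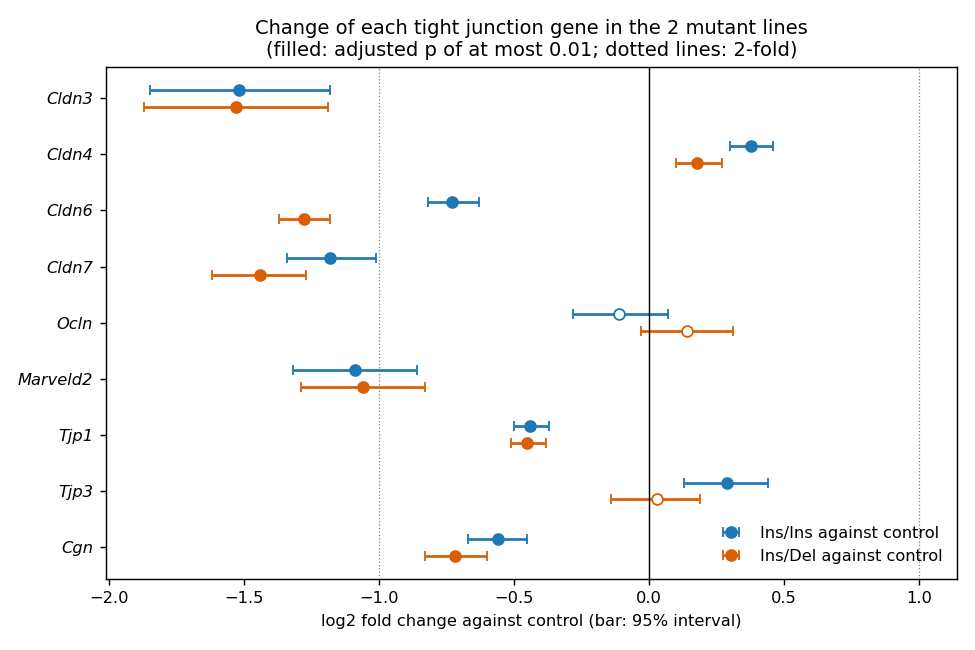
Log2 fold changes of the 9 tight junction genes for Ins/Ins against control and Ins/Del against control, with points for the edgeR estimate and bars for the 95% interval. The intervals of Cldn3, Cldn6, Cldn7, Tjp1, Marveld2 and Cgn lie below 0 in both comparisons with control, those of Cldn4 lie above 0, and those of Ocln include 0.

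The order of the levels also differed between the lines. Per kilobase of exon, the order in control was *Cldn6* (955 ± 23.7), *Cldn4* (863 ± 23.5), *Tjp1* (682 ± 27.6), *Cldn7* (246 ± 5.91), *Cgn* (170 ± 8.06), *Cldn3* (108 ± 21.4), *Ocln* (77.7 ± 3.09), *Tjp3* (74.6 ± 5.49) and *Marveld2* (61.1 ± 6.54) in normalized counts per kilobase (SD, n = 3). Only *Ocln* and *Tjp3* had overlapping ranges among neighbours in this order. In Ins/Ins *Cldn4* came first (1121 ± 41.4), followed by *Cldn6* (577 ± 8.14) and *Tjp1* (504 ± 17.8), and the neighbours *Cgn* and *Cldn7*, and *Cldn3* and *Marveld2*, overlapped. In Ins/Del *Cldn4* (980 ± 44) was followed by *Tjp1* (500 ± 6.49) and *Cldn6* (395 ± 24.2), and *Cgn*, *Cldn7* and *Ocln* each overlapped the next gene in the order, which for *Ocln* was *Tjp3*. *Marveld2* was lowest in all 3 lines.

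The mutant lines were then compared with each other. *Cldn6* and *Cldn4* were lower in Ins/Del than in Ins/Ins, by log2 fold changes of -0.55 (SE 0.051, edgeR adjusted p = 1.6e-10) and -0.19 (SE 0.04, adjusted p = 0.00048). The other 7 members were not called in this comparison, in which 10.8% of all genes were called, 6.17% higher and 4.64% lower in Ins/Del. No member differed over 2-fold between the mutant lines, as did 0.361% of all genes. The libraries of the mutant lines did not overlap for 4 members, all lower in Ins/Del (*Cldn4*, *Cldn6*, *Tjp3* and *Cgn*), and for 34.1% of all genes, 17.4% higher and 16.7% lower. The *Cldn4* call was lost without Ins/Ins 1, the library with the highest level (log2 fold change -0.16, edgeR adjusted p = 0.0111). *Cldn3*, *Tjp1* and *Marveld2* had differences near 0, with 95% intervals of -0.42 to 0.40, -0.08 to 0.06 and -0.23 to 0.30 on the log2 scale. The interval of *Cldn3* leaves room for a difference of either sign, and the interval of *Tjp1* is narrow. *Tjp3* (-0.26), *Cldn7* (-0.27), *Cgn* (-0.15) and *Ocln* (0.25) had edgeR adjusted p of 0.0147, 0.0504, 0.0598 and 0.0363 and did not pass. Among the alternatives at the limit of 0.01, *Ocln* passed, as higher in Ins/Del, without Ins/Del 1, its lowest Ins/Del library, and in no other (log2 fold change 0.34, edgeR adjusted p = 0.00752).

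Other claudins had few or no reads in most cases. Of 29 further claudin and claudin-domain symbols, 9 had no read in any library, 14 had too few reads to be tested, at most 12 in a library, and 6 were tested. In each mutant line 66.7% of the tested claudins were called, beside 58.4% of all tested genes in Ins/Ins and 62.5% in Ins/Del. All 6 are named here whatever their change. *Cldn12* had the highest level of these, with 906 ± 26.7 normalized counts in control (SD, n = 3), and fell with log2 fold changes of -0.52 in Ins/Ins and -0.56 in Ins/Del (edgeR adjusted p = 3.5e-11 and 7.5e-12). *Cldnd1* and *Cldn1* also fell in both lines and *Cldn18* rose in both, and *Cldn5* and *Cldn9* did not pass in either. *Cldn1* had 22 to 27 reads in the control libraries, 0 to 4 in Ins/Ins and 1 to 7 in Ins/Del, so it passed the filter on low counts through control. *Cldn18* had 0, 0 and 1 reads in control, 5 to 8 in Ins/Ins and 11 to 16 in Ins/Del. *Cldn18* passed the filter on low counts through the libraries in which it is high, and it was not called when only control and Ins/Ins were fitted. Both genes have few reads, so the size of their change is poorly defined.

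A list of 37 other tight junction and polarity genes, all of them tested, held 18 genes that fell and 7 that rose in Ins/Ins, and 19 that fell and 7 that rose in Ins/Del. The share called was 67.6% in Ins/Ins and 70.3% in Ins/Del, beside 58.4% and 62.5% of all tested genes. All tested genes fell and rose in shares of 29.4% and 29% in Ins/Ins and 31.9% and 30.6% in Ins/Del. The median log2 fold changes of the list were -0.11 and -0.22, closer to 0 than those of the members. Over all tested genes, 16% in Ins/Ins and 18.6% in Ins/Del were called with a change over 2-fold. The share of all genes that did so in both lines together was not counted. In this list, changes of over 2-fold in one direction in both lines were seen in 8 genes. The genes that fell were *Mpdz*, a scaffold with many PDZ domains (log2 fold change -1.79 in Ins/Ins and -1.79 in Ins/Del), *Magi2*, another PDZ scaffold (-1.89 and -2.54), *Pard3b*, a polarity gene (-1.63 and -2.35), *Marveld3*, the remaining MARVEL gene of tight junctions (-1.30 and -1.79), and *Cxadr*, an immunoglobulin-type adhesion receptor (-1.02 and -1.17). Those that rose were *Jam2*, a junctional adhesion molecule (1.35 and 1.69), *Ildr1*, an angulin (1.39 and 1.24), and *Micall2*, which links junctions to actin (2.07 and 2.42). *Jam2* had 2055 ± 118 normalized counts in control, 5256 ± 200 in Ins/Ins and 6633 ± 149 in Ins/Del (SD, n = 3). *Pard3b* had 22 to 34 reads in the control libraries and 4 to 10 in the mutants. It passed the filter on low counts through the control libraries, so the size of its fall is poorly defined.

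Some relatives of the members were singled out after their values were seen. *Lsr*, an angulin that recruits tricellulin to the corners of cells, fell by 0.44 and 0.74 on the log2 scale in Ins/Ins and Ins/Del (edgeR adjusted p = 1e-09 and 2.3e-15). *Marveld2* and *Lsr* thus fell in both lines, whereas the angulin *Ildr1* rose. The remaining angulin of the list, *Ildr2*, fell in Ins/Ins (-0.61, edgeR adjusted p = 0.0015) and did not pass in Ins/Del (-0.38, adjusted p = 0.037). *Cgnl1*, the paralogue of cingulin, fell by 0.69 and 0.53 (adjusted p = 8.7e-13 and 4e-10).

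Adherens junction and desmosome genes were also lower on balance. Of 22 genes, 21 were tested, and 13 fell and 4 rose in each mutant line (81% called), with medians of -0.28 and -0.35. Over all tested genes, 29.4% fell and 29% rose in Ins/Ins, and 31.9% fell and 30.6% rose in Ins/Del. *Dsc2*, a desmosomal cadherin, fell over 2-fold in both (log2 fold change -1.50 in Ins/Ins and -2.08 in Ins/Del). *Cdh1*, which encodes E-cadherin, fell in Ins/Ins (-0.25, edgeR adjusted p = 3.4e-10) and had a log2 fold change of -0.01 in Ins/Del (adjusted p = 0.76), a difference between the lines that passed the test (adjusted p = 2.4e-08). *Cdh1* was singled out after its values were seen. Of 11 regulators of epithelial genes, 6 rose and 3 fell in Ins/Ins and 5 rose and 4 fell in Ins/Del. Their share called was 81.8% in each line, beside 58.4% of all tested genes in Ins/Ins and 62.5% in Ins/Del. None of the regulators changed over 2-fold in the same direction in both lines.

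**Figure D4:**
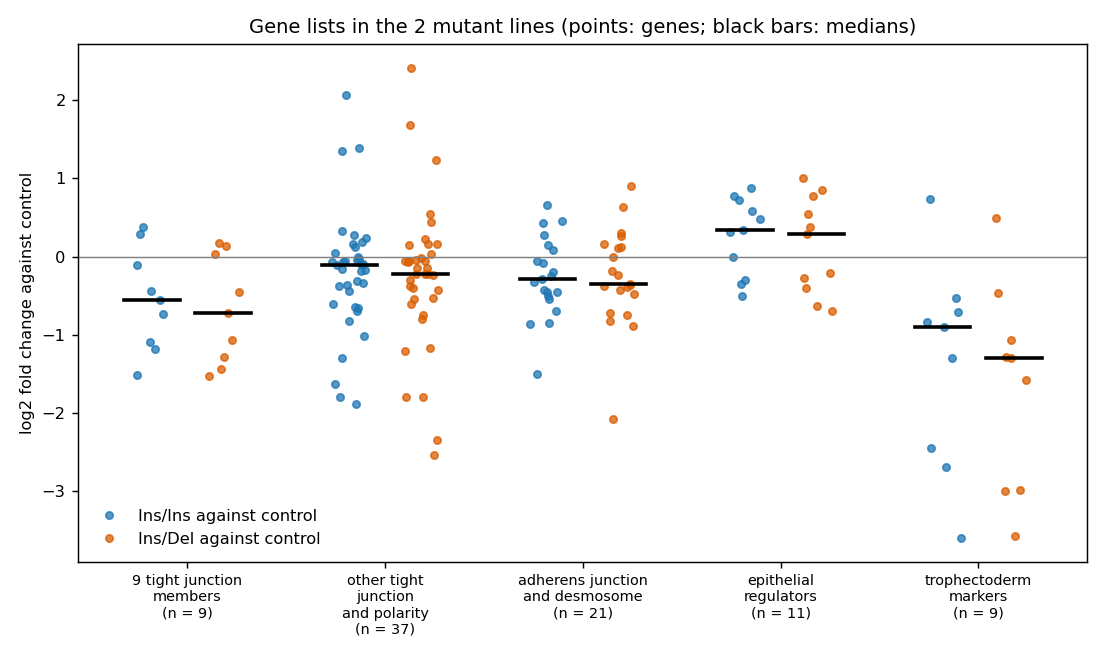
Log2 fold changes of each tested gene against control in Ins/Ins and Ins/Del, grouped by list, with 1 point per gene and a bar at the list median. The medians of the members are -0.56 and -0.72, those of other tight junction and polarity genes -0.11 and -0.22, those of adherens junction and desmosome genes -0.28 and -0.35, those of epithelial regulators 0.34 and 0.29 and those of trophectoderm markers -0.90 and -1.30.

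Markers of other cell types that a culture could hold were also measured. Of 10 trophectoderm markers, 9 were tested, and 6 fell and 1 rose in Ins/Ins and 7 fell and 1 rose in Ins/Del. The share called was 77.8% in Ins/Ins and 88.9% in Ins/Del, beside 58.4% and 62.5% of all tested genes. The summed normalized counts of the 10 markers were 4235 to 4676 in control, 1214 to 1291 in Ins/Ins and 928 to 1071 in Ins/Del. The keratins *Krt8* and *Krt18*, which trophectoderm shares with other simple epithelia, made most of this sum in control and fell (log2 fold changes -2.69 and -2.45 in Ins/Ins and -3.00 and -2.98 in Ins/Del). *Cdx2*, a defining factor of trophectoderm, had 27, 27 and 36 reads in control, 2 to 3 in Ins/Ins and 1 to 4 in Ins/Del. It passed the filter on low counts through the control libraries, so the size of its fall is poorly defined. *Elf5* had at most 4 reads in any library. *Eomes* rose in both lines. The part of trophectoderm-like cells in the falls of the tight junction genes was not tested.

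Among primitive endoderm markers, 8 of 11 were tested, and 2 rose and 2 fell in Ins/Ins and 6 rose and 2 fell in Ins/Del. The share called was 50% in Ins/Ins and 100% in Ins/Del, beside 58.4% and 62.5% of all tested genes. *Hnf4a* and *Sox7* rose over 2-fold in both lines (log2 fold changes 3.68 and 1.63 in Ins/Ins and 3.96 and 2.22 in Ins/Del), and *Gata4* and *Dab2* fell over 2-fold in both (-1.56 and -1.35, and -1.05 and -1.29). *Hnf4a* had only 3 to 6 reads in the control libraries and 51 to 80 in the mutants. It passed the filter on low counts through the mutant libraries, in which it is high, so the size of its rise is poorly defined. The summed normalized counts, most of which came from *Lama1*, were 1728 to 1858 in control, 1740 to 1870 in Ins/Ins and 2406 to 2422 in Ins/Del. *Ttr* had at most 1 read in any library and *Afp* at most 5. Among fibroblast markers, 5 of 10 were tested, and 3 fell (*Col1a1*, *Col1a2* and *Col3a1*) and 2 rose (*Thy1* and *Fbn1*) in each mutant line. The share called was thus 100% in each line, beside 58.4% and 62.5% of all tested genes. The summed normalized counts of the 10 markers were 891 to 978 in control, 680 to 772 in Ins/Ins and 893 to 914 in Ins/Del. *Col1a1* had 256 to 318 reads in the control libraries and 11 to 27 in the mutants, while *Thy1* had 43 to 52 in control and 204 to 339 in the mutants. *Col3a1* had 28 to 35 reads in control and 0 to 2 in the mutants, so it passed the filter on low counts through the control libraries. *Lum* had at most 1 read in any library. The part of these cells in the results was not tested.

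The changes of the members were set beside those of the genes around them. Within 200 kb of *Cldn3*, 12 other genes were tested, and 5 rose and 0 fell in both mutant lines, where 25.6% and 26.7% of all tested genes rose and fell in both. Around *Cldn4* the numbers were 10, 4 and 1, around *Marveld2* 11, 2 and 2, around *Ocln* 8, 2 and 2, around *Tjp3* 23, 7 and 3, around *Cgn* 8, 4 and 0, and around *Tjp1* 3, 0 and 0. The windows of *Cldn3* and *Cldn4* share genes and each holds the other gene, and so do those of *Ocln* and *Marveld2*. The 1 gene that fell around *Cldn4* was *Cldn3*, and *Marveld2* was 1 of the 2 that fell around *Ocln*. Around *Cldn6*, 19 genes were tested, of which 7 fell and 2 rose in both lines, and the median log2 fold changes were -0.24 in Ins/Ins and -0.39 in Ins/Del. Around *Cldn7*, 25 were tested, of which 8 fell and 4 rose in both, with medians of 0.01 and -0.20. *Tnfrsf12a*, which starts 1.8 kb from *Cldn6*, fell in both lines (-0.90 and -0.96), whereas *Thoc6*, whose start is 5.4 kb away, rose (0.30 and 0.31). *Hcfc1r1*, which starts slightly farther away than *Thoc6*, fell in both lines (-0.28 and -0.37), and *Cldn9*, at 4.8 kb, did not pass in either.

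**Figure D5:**
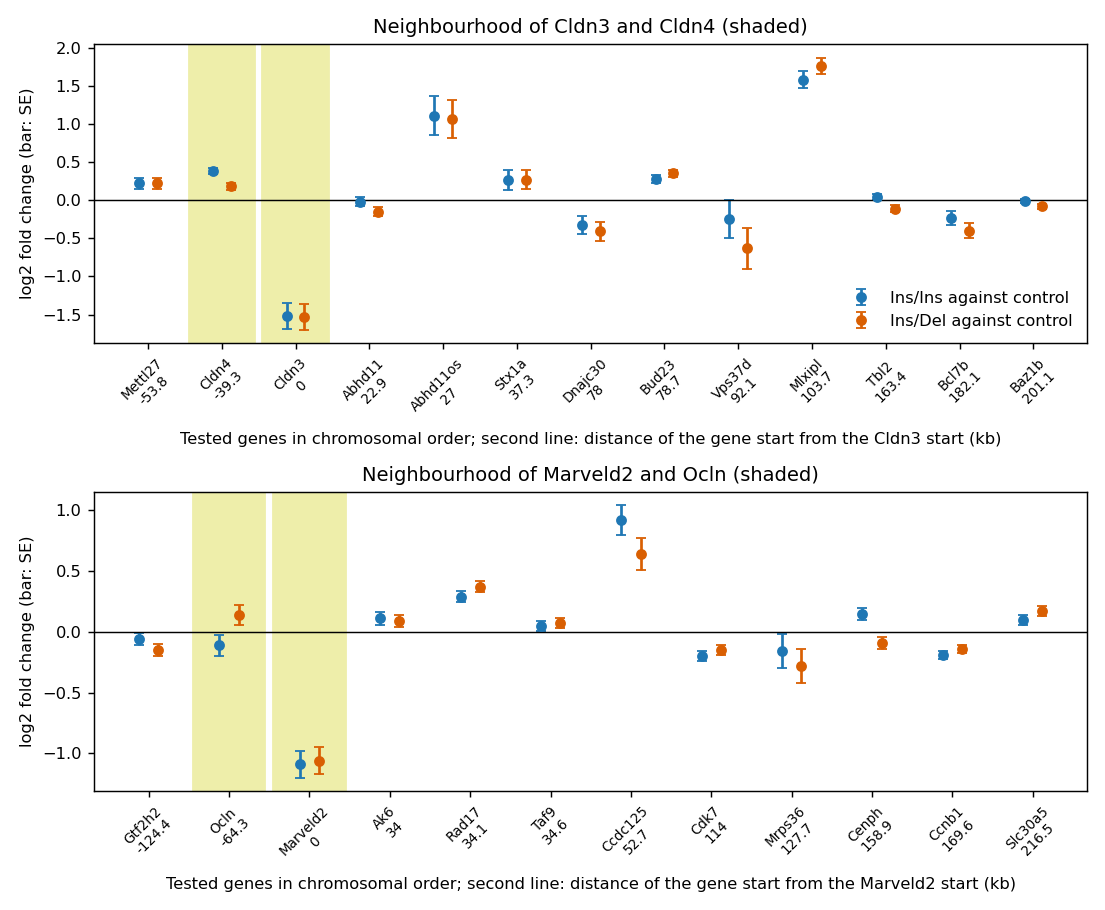
Log2 fold changes against control (bars for SE), for Ins/Ins and Ins/Del, of tested genes around Cldn3 and Cldn4 and around Marveld2 and Ocln, in chromosomal order, with the distance of each start from the start of Cldn3 or Marveld2 in kb. Cldn3 (-1.52 and -1.53) and Marveld2 (-1.09 and -1.06) are the lowest points of their panels in both lines.

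For each member, the gene with the most similar pattern was the tested gene with the smallest Euclidean distance over the 9 libraries, on log2 normalized counts centred on each gene's mean, among 10215 or 10216 genes with a mean normalized count above 100. *Patj*, itself a polarity scaffold of tight junctions, was nearest to *Cldn6* (distance 0.162), with log2 fold changes of -0.66 in Ins/Ins and -1.21 in Ins/Del. *Itgav*, an integrin subunit, was nearest to *Tjp1* (0.055), *Ralgps2* to *Cgn* (0.103), *Sars* to *Cldn4* (0.127), *Ndufaf5* to *Tjp3* (0.154), *Serpinb9b* to *Ocln* (0.19) and *Zfp882* to *Cldn7* (0.241). *Loxl2* was nearest to *Cldn3* (0.54) and *Il17rd* to *Marveld2* (0.191), and both are on chromosome 14, which holds no member. The distance of *Cldn3* was the largest of the 9, and *Cldn3* also had the lowest counts of the members in every line.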

How the data were processed

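Total RNA was made into libraries with a Kapa mRNA kit and sequenced as paired-end reads. The authors aligned the reads to mm10 with STAR 2.7.3 and counted them with HTSeq; the deposited values are whole-number counts per gene symbol, with no normalization. The annotation, the HTSeq version and its strand setting are not given in the sources used here, nor is the handling of reads that match several similar claudins. The authors tested the counts with DESeq2 1.22.2.

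Groups came from the genotype labels. In R 4.3.3, the edgeR package (4.0.16) was used for TMM scaling, for filterByExpr and for a quasi-likelihood model of all 9 libraries in 3 groups, without covariates. P-values were adjusted by the Benjamini-Hochberg method over 14125 genes and called at 0.01. SE is the absolute log2 fold change over the square root of F. Totals of 15838064 to 21366868 reads set the precision. Positions and exon lengths come from GENCODE M21 and promoters from RefSeq, both on GRCm38; all 9 members matched. The fits were tested on simulated data. Alternatives were DESeq2 1.42.0, other scalings, no filter, a block for the replicate number, fits of the compared groups alone, leaving out single libraries, a limit of 0.05, testing for more than a 1.5-fold change, and lengths of the longest transcript.

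The members, the gene lists and the tests were chosen with earlier results of these data known. Named genes are the members, *Rbbp4*, list genes called in one direction with over 2-fold change in both mutants, the nearest-pattern gene of each member, neighbours, the 6 other claudins tested, and markers beside a result; others are said to be singled out. The 6 claudins were added after their values were seen. Same-numbered libraries did not deviate together.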

Additional observations from a re-analysis of the deposited data

Results flagged for a closer look

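The direct test between the mutant lines found a difference for *Cldn6* and *Cldn4*. *Cldn6* was lower in Ins/Del than in Ins/Ins by a log2 fold change of -0.55, with 679 ± 41.7 against 993 ± 14 normalized counts (SD, n = 3). *Cldn4* differed by -0.19, with 1780 ± 79.9 against 2036 ± 75.2 (SD, n = 3), so its rise over control was smaller in Ins/Del.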

How the results depend on the processing

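Under the alternatives that refit the counts at the limit of 0.01, 395 member fold changes kept their direction and side of the limit, 6 changed sign, 3 lost and 1 gained a call. The sign changes were all in differences near 0. Between the lines, *Cldn3* was 0.01 with DESeq2 and -0.18 to 0.17 over single libraries left out, and *Tjp1* was -0.03 to 0.02. *Tjp3* in Ins/Del against control was -0.02 to 0.07. With a limit of 0.05, 4 members and 2682 genes were called between the lines, and 7 adherens junction and desmosome genes. Leaving out 1 library gave 1 to 3 members and 988 to 1646 genes there. Against a 1.5-fold change, 4 members were called in each mutant against control and 0 between the lines. Per kilobase of the longest transcript, the control levels were 1013 for *Cldn6*, 359 for *Cldn7*, 755 for *Tjp1*, 91.6 for *Tjp3*, 80.9 for *Ocln* and 204 for *Cgn*, so *Tjp3* and *Ocln* exchanged places. By this length *Cldn7* lay above *Cgn* in the mutants too (158 against 138 in Ins/Ins and 132 against 124 in Ins/Del). *Tjp3* lay above *Ocln* in Ins/Del (93.4 against 89). The order of *Cgn* and *Cldn7* in the mutants thus depends on the length used. Depth limits *Cldn3* most, with 33 to 185 reads per library.

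Correlations of same-numbered deviations were -0.02 to 0.063, so the numbers were not taken to pair the libraries. With the replicate block, 8, 7 and 2 members were called in Ins/Ins, in Ins/Del and between the lines, the counts without it.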
